A study of Homo sapiens with 17 samples.

Results

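The microRNAs miR-451a, miR-144, miR-486 and miR-210 were followed in K562, a human erythroleukemia cell line that can be driven towards red cell fates. Their 5 genes, MIR451A, MIR144, MIR486-1, MIR486-2 and MIR210, were defined by name and position, without a threshold on measured values, though they were picked with earlier results of these data known. Members were the alignments of 18 to 32 nt lying inside the hg19 window of each gene on its strand. These came to 385 distinct alignments of 7384920 of that length in the 8 tables used.

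All cells, controls included, carried a Dox-inducible knockdown hairpin for Drosha, which makes the first cut in the maturation of microRNAs. They were kept with 1 µg/mL doxycycline (Dox) or with water in its place for 3, 13 or 31 d, and small RNA was sequenced. Each table sets a Dox library against its water partner, matched by day and replicate number, with 2 such pairs at 3 d and 3 each at 13 d and 31 d, from 8 Dox and 8 water libraries. An untreated library was not analysed here. The labels call the replicates biologically independent, and they do not say whether the hairpin line is a single clone.

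The value used was the ratio of the 2 libraries of a pair, as the authors deposited it, taken here as log2. The sources used here do not state which library is the numerator. Values are therefore written as numerator over denominator, and a value below 0 means less RNA in the numerator library. If the numerator is the Dox library, values below 0 mean less RNA with Dox. That all 8 tables run the same way was assumed. Depth is unknown, so no counting error can be given, and in bulk cultures fewer cells of a type and less RNA per cell cannot be told apart.

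MicroRNAs are cut from a hairpin in the nucleus by Drosha with its partner DGCR8, and most hairpins are then cut by Dicer into a 5p and a 3p arm. MiR-451a is the known exception: its hairpin is too short for Dicer, is sliced by Argonaute 2 and is then trimmed from its 3′ end, so 1 start comes with many lengths. MIR144 and MIR451A lie on a common transcript that the erythroid factor GATA1 drives. MiR-486 is made in the erythroid and muscle gene ANK1, and miR-210 is the microRNA known for its induction by low oxygen.

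On chromosome 17, minus strand, the MIR144 window ran from 27188551 to 27188636 and the MIR451A window from 27188387 to 27188458, with 92 bases between them. In the GENCODE annotation of GRCh38, used for names only, both genes touch an exon of a long noncoding RNA. The windows of the 2 miR-486 genes are given with their values. MIR210, on chromosome 11 from 568089 to 568198, minus strand, lies in an intron of its host RNA MIR210HG.

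The mature sequences that could be shown are those of miR-144 and miR-210, from RefSeq (GRCh38), with the seed, bases 2 to 8 from the 5′ end, in capitals. They are given because values are described below for each of these hairpins, and for miR-210-3p also by end and length. The 4 seeds are all different.
miR-144-5p: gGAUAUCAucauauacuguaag
miR-144-3p: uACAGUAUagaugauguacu
miR-210-5p: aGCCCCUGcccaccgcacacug
miR-210-3p: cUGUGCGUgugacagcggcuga

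In the hairpins, also from RefSeq, capitals mark both mature arms. The bases that follow the miR-210-3p arm are those that its longer forms keep.
MIR144 hairpin: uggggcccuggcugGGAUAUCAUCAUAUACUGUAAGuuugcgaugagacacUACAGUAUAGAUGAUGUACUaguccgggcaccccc
MIR210 hairpin: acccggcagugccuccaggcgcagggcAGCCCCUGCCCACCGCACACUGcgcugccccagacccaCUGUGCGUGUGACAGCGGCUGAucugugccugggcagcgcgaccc

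For each arm, the alignments that share its 5′ end on 1 strand and have a ratio above 0 in all 8 tables were pooled as a stack, and the median of their log2 ratios was the arm's value in a table. A ratio of 0 means that the numerator library had no read. Of the 9 arms placed, 7 had such a stack of at least 3 alignments, out of 1228 stacks in the genome. MiR-144-3p and miR-210-5p had none and were described without a test. Of the distinct alignments in each window, 9 of 104 were above 0 in all 8 tables for MIR451A, 8 of 70 for MIR144, 12 of 67 for MIR486-1, 13 of 59 for MIR486-2 and 19 of 85 for MIR210, so the stacks stand for the forms seen in every pair.

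Whole tables were shifted against each other. The median log2 ratio of all stacks lay between -1.87 (31 d, pair 2) and 1.49 (3 d, pair 3), and the median over stacks of the day means was 1.09 for 3 d, -0.15 for 13 d and -0.72 for 31 d. The tables also differed by length: the median of alignments of 24 to 32 nt minus that of 18 to 23 nt ran from -3.30 (31 d, pair 2) to 1.18 (13 d, pair 2), and it was below 0 in both 3 d pairs (-0.39 and -1.48), in 13 d pair 3 (-0.93) and in 31 d pair 2. A single stack on chromosome 5, plus strand, with its 5′ end at 31511242, had the highest value in all 8 tables, from 7.31 to 12.22. Drosha mRNA was not analysed here.

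MiR-451a, miR-486 and miR-210-3p were lower in the numerator library at 13 d, and miR-451a and miR-486 also at 31 d. At 13 d 6 of the 7 arms passed the limma test as lower (Benjamini-Hochberg adjusted p under 0.05 over all stacks), where 23% of all stacks did, and none passed as higher, where 8.79% did. At 31 d 5 of the 7 arms were lower, against 19.9% of all stacks, and none was higher, against 5.46%. The 4 miR-486 arms are not independent of each other. The median of the 7 arms was -3.05 at 13 d and -2.53 at 31 d. At 3 d none of the 7 passed in either direction, with a median of 1.42 against 1.09 for all stacks. At that day 9.2% of all stacks passed as higher and 0.896% as lower. Unadjusted, 2 of the 7 arms had a limma p under 0.05 at 3 d, where 445 of 1228 stacks did. These were the 5p arms of both miR-486 hairpins. Once every table was centred on its median, 3 of the 7 arms were lower at 31 d (miR-451a and both miR-486 5p arms). Without 31 d pair 3, 2 of the 7 were, where 118 of 1254 stacks were lower. With centring, the stacks that passed were 174 lower and 56 higher for 3 d, 285 and 165 for 13 d, and 158 and 155 for 31 d, beside 11 and 113, 282 and 108, and 244 and 67 without it.

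**Figure D1:**
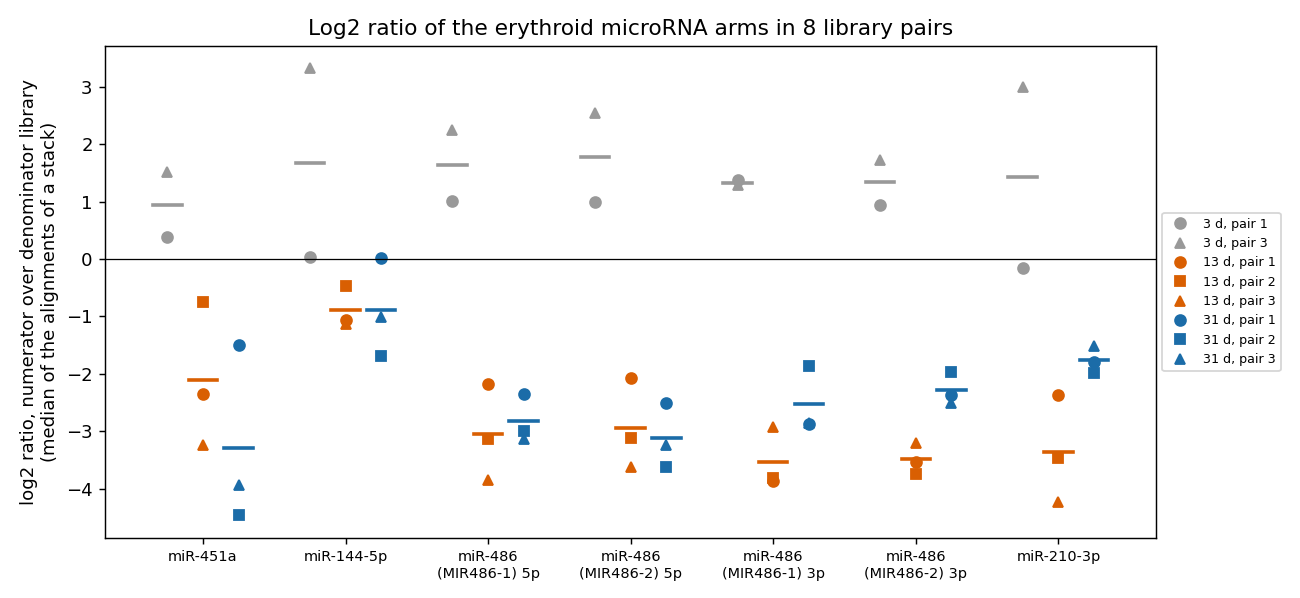
Log2 ratio, numerator over denominator library, for the 7 arms with a stack (x axis). Each point is 1 library pair, coloured by day and shaped by pair number, and bars are day means. The 13 d and 31 d points of miR-451a, miR-486 and miR-210-3p all lie below 0 and below the 3 d points, while miR-144-5p at 31 d reaches 0.03.

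MiR-451a, a slicer-made microRNA of maturing red cells, had a stack of 9 alignments of 18 to 30 nt with the 5′ end at 27188442, base 17 of its window. Its log2 ratios were 0.38 and 1.51 in the 3 d pairs 1 and 3, -2.35, -0.75 and -3.24 in the 13 d pairs 1 to 3, and -1.49, -4.47 and -3.93 in the 31 d pairs 1 to 3. All 6 later values lay below both 3 d values, and the 13 d and 31 d values overlapped. The day mean was -2.11 ± 0.71 (SE, n = 3 pairs, limma adjusted p = 0.0398), or 4.33-fold lower, at 13 d. It was -3.30 ± 0.71 (limma adjusted p = 0.00579), or 9.83-fold lower, at 31 d. At 3 d the mean was 0.94 ± 0.87 (limma adjusted p = 0.431), and with tables centred it was -0.12.

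The miR-451a call at 13 d was close to the threshold. Without 13 d pair 3 the mean was -1.20 (limma adjusted p = 0.292). Without 31 d pair 2, alignments listed at 0 in that table alone entered the stack, and the 13 d mean was -3.30 (limma adjusted p = 0.00147). The limma call was also lost without 13 d pair 1 (limma adjusted p = 0.0726), 3 d pair 1 (limma adjusted p = 0.0600), 3 d pair 3 (limma adjusted p = 0.0568) or 31 d pair 3 (limma adjusted p = 0.0509). At 31 d it was lost without pair 2 (-2.36, limma adjusted p = 0.0875) or pair 3 (-2.98, limma adjusted p = 0.0514).

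Requiring a ratio above 0 leaves out forms that vanished from the numerator library. At the miR-451a start, 0 of 29 listed values were 0 at 3 d, 4 of 44 at 13 d and 4 of 44 at 31 d. Over the 14 alignments listed in all 8 tables, with zeros kept as the lowest value, the median ratio was 0.790 and 2.96 in the 3 d pairs, 0.102, 0.244 and 0.0353 in the 13 d pairs, and 0.409, 0.0184 and 0.147 in the 31 d pairs. With the zeros kept, too, every later pair was below both 3 d pairs.

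The forms of miR-451a differed by length at 13 d. The 22 nt form, near the length of the trimmed microRNA, had log2 ratios of -0.63, -0.75 and -3.24 in the 3 pairs. The 30 nt form, the length that slicing is known to leave, had -4.88, -5.28 and -6.32. Across lengths, the median at 24 to 32 nt was below that at 18 to 23 nt by differences of -3.99, -2.68 and -3.90, while for all alignments of the genome the same differences were 0.21, 1.18 and -0.93. The long forms were thus the lower ones in each 13 d pair, by more than in the genome as a whole.

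At 31 d that order was not seen in every pair. In pairs 1 and 3 the long forms were above the short ones, by 1.46 and 1.85 (all alignments 0.44 and 0.85). In pair 2 they were below, by -2.50, where all alignments differed by -3.30. The 30 nt form stood at -1.11, -9.41 and -2.21, and the 22 nt form at -2.42, -4.47 and -4.70. At 3 d the 30 nt form was the highest of the miR-451a forms, at 2.37 and 5.37, against -0.52 and 1.59 for the 22 nt form. These length patterns were described without a test, and forms of 1 start are not replicates of each other. The reads behind a single form are unknown. The 31 nt form of miR-451a and the 27 nt form of miR-210-3p held the same log2 ratios in the 3 d pairs, 0.97 and 4.93. Such ties can occur when reads are few.

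**Figure D2:**
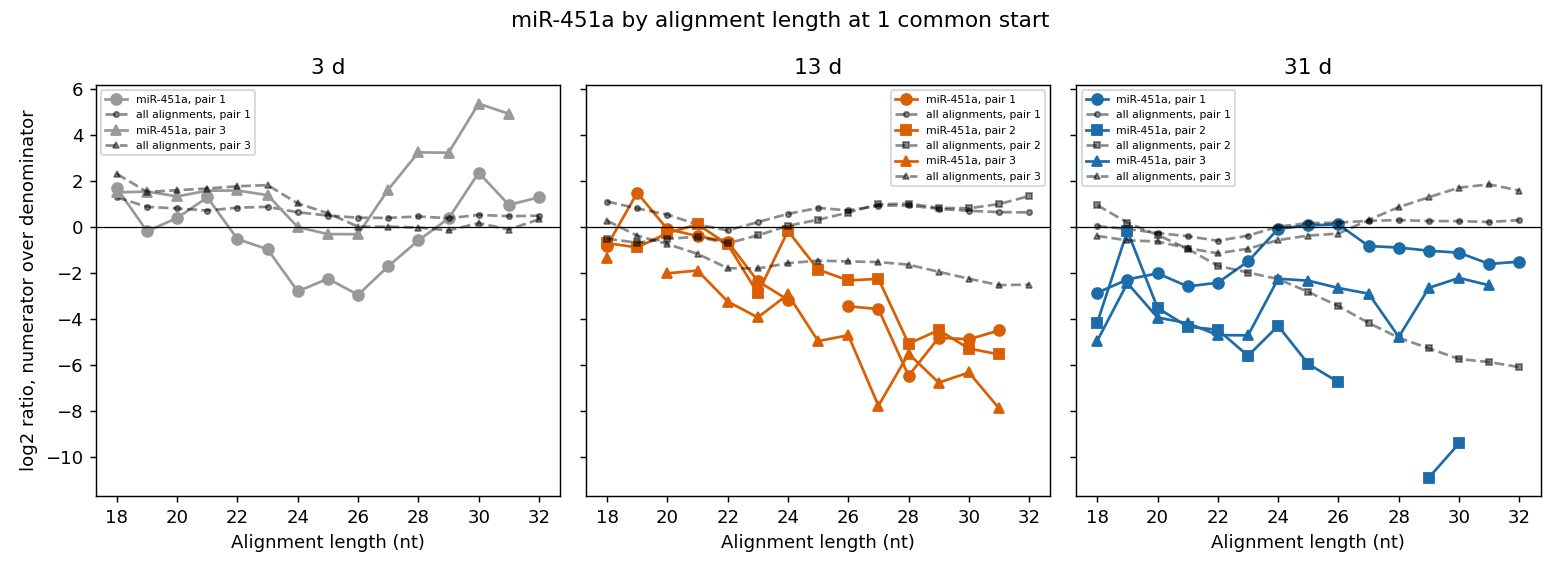
Log2 ratio of miR-451a by alignment length in nt at its single start, 1 panel per day and 1 coloured line per library pair, with dashed black lines for the median of all alignments of that length in the same pair. At 13 d all 3 coloured lines fall with length, to -4.88, -5.28 and -6.32 at 30 nt. At 31 d those of pairs 1 and 3 do not, standing at -1.11 and -2.21 at 30 nt. Lengths not listed or listed at 0 have no point.

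MiR-144 shares its transcript with miR-451a but is cut by Dicer, and its 5p arm was not called at any day. The stack at 27188622 (5 alignments, 19 to 24 nt) had log2 ratios of 0.03 and 3.32 in the 3 d pairs, -1.07, -0.48 and -1.12 in those of 13 d, and 0.03, -1.69 and -1.02 in those of 31 d. Pair 1 stood at 0.0312 at 3 d and 0.0255 at 31 d, so the values of these days nearly met at 0 without overlapping, and the other later pairs lay below 0. The means were -0.89 ± 0.67 at 13 d (SE, n = 3 pairs, limma adjusted p = 0.383), then -0.89 ± 0.67 at 31 d (limma adjusted p = 0.368). Centred on alignments of its own length, the 31 d mean was 0.14. A second stack starting 1 base downstream, at 27188621, also missed the threshold, with -1.10 at 13 d (limma adjusted p = 0.296), then -1.41 at 31 d (limma adjusted p = 0.175).

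MiR-144-3p, the arm best known to act in red cells, was thinly listed: its start at 27188585 had 6 distinct alignments in all, 0 to 5 in a table and none above 0 in every table. Its 20 nt mature form was listed in 7 tables, at -1.02 and 2.32 at 3 d, 0.64 and -0.35 in the 13 d pairs 2 and 3, and 0.55, -0.46 and -1.68 at 31 d. A form 1 base longer was listed in the 31 d tables alone, at 3.28, 1.91 and 2.62. The 20 nt form lay on both sides of 0 at every day, and the 21 nt form lay above 0 in each 31 d pair.

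Set against miR-144-5p within each table, where a shift of the whole table drops out, miR-451a was lower in 7 of 8 pairs. The differences were 0.35 and -1.81 in the 3 d pairs, -1.29, -0.27 and -2.11 in those of 13 d, and -1.52, -2.78 and -2.91 in those of 31 d. Their mean was -1.54 ± 1.14 (SD, n = 8 pairs, exact two-sided sign-flip permutation p = 0.0234). Over the 6 later pairs it was -1.81 ± 1.00 (SD), with 6 of 6 below 0 and an exact permutation p of 0.0312, the smallest that 6 pairs allow. Neither passed after Benjamini-Hochberg adjustment over the 12 within-table comparisons made (permutation p = 0.188 for both). So 2 microRNAs of 1 transcript were not shown to differ at this number of pairs.

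MiR-451a was not shown to differ from the other arms either. Its mean difference over the 8 pairs was -0.23 ± 1.79 (SD) from miR-210-3p, 0.00 ± 1.23 and 0.04 ± 1.16 from the 5p arms of MIR486-1 and MIR486-2, and 0.15 ± 1.79 and 0.04 ± 1.68 from their 3p arms. The adjusted exact permutation p was 1.0 for each. The order changed with the day: against miR-210-3p, miR-451a was higher in the 13 d pairs (mean 1.24 ± 1.37, SD, n = 3) and on average lower in the 31 d pairs (-1.53 ± 1.58, SD, n = 3), a change that was not tested.

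MIR486-1 on the minus strand and MIR486-2 on the plus strand occupy 1 stretch of chromosome 8, from 41517959 to 41518026. By the GRCh38 annotation it lies inside an intron of ANK1, the gene of the red cell membrane protein ankyrin, with MIR486-1 on the strand of that gene.

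MiR-486 was low in every later pair, and its spread between pairs was smaller than that of miR-451a. At MIR486-1 the 5p arm, start 41518023 (7 alignments), had log2 ratios of 1.00 and 2.25 in the 3 d pairs, -2.17, -3.14 and -3.84 in those of 13 d, and -2.35, -3.0 and -3.13 in those of 31 d. The later values did not overlap with those of 3 d. Its means were -3.05 ± 0.57 at 13 d (SE, n = 3 pairs, limma adjusted p = 0.00207), or 8.29-fold lower, and -2.83 ± 0.57 at 31 d (limma adjusted p = 0.00421), or 7.10-fold lower. Between pairs of a day the SD was 0.84 and 0.42, against 1.26 and 1.58 for miR-451a at 13 d and 31 d.

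The 3p arm of MIR486-1, start 41517981 (4 alignments), stood at 1.38 and 1.28 in the 3 d pairs, -3.87, -3.81 and -2.92 in those of 13 d, and -2.88, -1.86 and -2.86 in those of 31 d. Both arms of the hairpin were thus low in all 6 later pairs. The 3p means were -3.53 ± 0.54 at 13 d (limma adjusted p = 0.000729), then -2.53 ± 0.54 at 31 d (limma adjusted p = 0.00541). With every table centred on its median the 31 d value was -1.73 (limma adjusted p = 0.0740), and without 31 d pair 3 it was -2.37 (limma adjusted p = 0.0620), so the call was lost under either.

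At MIR486-2, on the other strand, the 5p arm (start 41517962, 9 alignments) had means of -2.94 ± 0.58 at 13 d (limma SE, n = 3 pairs, limma adjusted p = 0.00262), then -3.12 ± 0.58 at 31 d (limma adjusted p = 0.00282). Its pairs ranged from -3.63 to -2.08 and from -3.62 to -2.50, against 1.00 and 2.54 at 3 d. The 3p arm (start 41518004, 4 alignments) had -3.49 ± 0.52 (limma adjusted p = 0.000696) and -2.28 ± 0.52 (limma adjusted p = 0.00757). Its 31 d value was -1.49 when centred (limma adjusted p = 0.0818) and -2.17 without 31 d pair 3 (limma adjusted p = 0.0767).

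The 2 miR-486 hairpins face each other on 1 stretch, so a read of 1 can match the other, and the values at both may rest on the same reads. Alignments of the same side and length were set against each other in each table, which gave 110 values over 16 lengths. None was identical, the median absolute difference was 0.21, and 99 of 110 were within 1 log2 unit. For the 5p forms above 0 in all tables the SD of the difference was 0.38 (56 values), and for the 3p forms 0.59 (32 values). These differences between copies were small beside the means of -3.05 and -2.94 that their 5p arms had at 13 d, and which hairpin gave the RNA cannot be told.

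**Figure D3:**
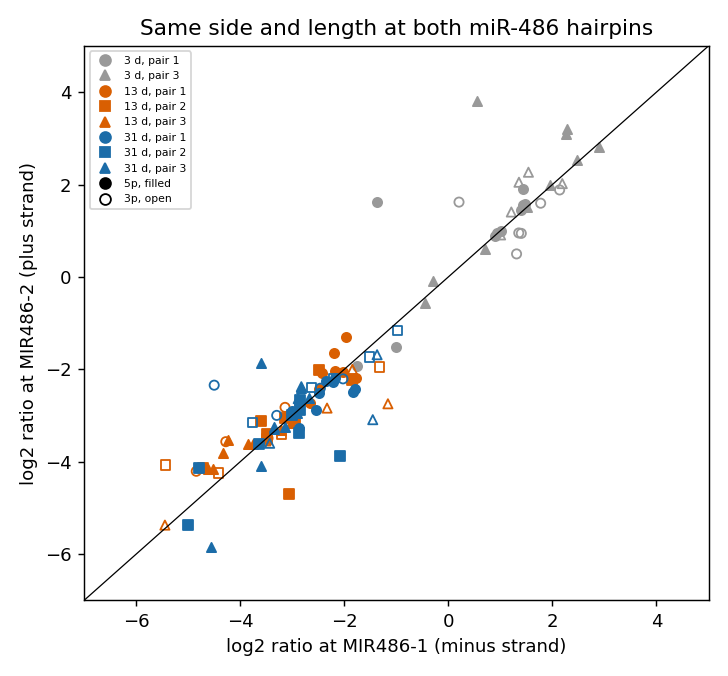
Log2 ratio of alignments of the same side (5p filled, 3p open) and length at MIR486-1 (x axis) and MIR486-2 (y axis), 1 point per length and library pair, coloured by day, with the line of equal values. Of the 110 points 99 lie within 1 unit of the line, with most 3 d points at the upper right and all later ones at the lower left, below 0 at both hairpins.

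By length, the 5p forms of miR-486 were set against the genome in the same way. At MIR486-2, the 24 to 32 nt forms differed from the 18 to 23 nt forms by 0.05, 1.24 and -0.54 in the 13 d pairs and by -0.55, -1.42 and 0.85 in the 31 d pairs, where all alignments of the genome differed by 0.21, 1.18 and -0.93 and by 0.44, -3.30 and 0.85. At MIR486-1 the differences were -0.11, 0.44 and -0.78, then -0.67, -2.04 and 0.22. The arm was within 0.4 of the genome in 4 of 6 later pairs at MIR486-2 and in 2 of 6 at MIR486-1. Its long forms were the lower ones relative to the genome in 3 of 6 and 4 of 6 pairs.

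MiR-210-3p, the low-oxygen microRNA, showed its lowest mean at 13 d. Its stack (start 568133, 8 alignments, 20 to 27 nt) had log2 ratios of -0.16 and 3.00 in the 3 d pairs, -2.36, -3.46 and -4.24 in those of 13 d, and -1.79, -1.99 and -1.52 in those of 31 d. The 13 d values all lay below the 31 d values, and these below 3 d. The mean was -3.36 ± 0.67 at 13 d (SE, n = 3 pairs, limma adjusted p = 0.0027), or 10.2-fold lower. At 31 d it was -1.76 ± 0.67, with a limma adjusted p of 0.0759, and the difference between the later days, 1.59 ± 0.95, was not called (limma adjusted p = 0.739). The 31 d value passed without 3 d pair 1 (limma adjusted p = 0.0356) or 3 d pair 3 (0.0340).

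The 5p arm of miR-210, start 568171, had 2 alignments above 0 in all tables, at a median of 0.71 and 2.64 in the 3 d pairs, -1.94, -0.97 and -4.51 in those of 13 d, and -2.69, -0.64 and -1.29 in those of 31 d. Its later values were all below 0, as those of the 3p arm were. With 2 alignments it had no stack and no test.

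The forms of miR-210-3p did not all move by the same amount. The annotated 22 nt form, printed above, had -1.07, -1.41 and -3.28 at 13 d and -0.89, 0.38 and -0.41 at 31 d. Taken alone, its 13 d mean was -1.92 and was not called (limma adjusted p = 0.165, over 12795 single alignments in place of 1228 stacks). The 20, 21 and 23 nt forms had 13 d means of -2.84, -2.80 and -2.56. With 20 to 24 nt alone the arm was called at 13 d (-2.69, limma adjusted p = 0.00145). The 26 nt form had -3.06, -4.66 and -4.73 at 13 d and -2.48, -4.49 and -1.81 at 31 d. The longest form above 0 in all tables was 27 nt, with the 5 bases past the annotated 3′ end in capitals here, as the RefSeq hairpin reads from base 66.
miR-210-3p, 27 nt form: cugugcgugugacagcggcugaUCUGU

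Forms of 24 to 32 nt were below those of 18 to 23 nt in each later pair, by differences of -1.14, -1.61 and -1.37 at 13 d and of -0.90, -3.92 and -1.08 at 31 d. All alignments of the genome differed by 0.21, 1.18 and -0.93, and by 0.44, -3.30 and 0.85. The difference of miR-210-3p was the lower one in all 6 pairs. At 3 d the long forms were above the short ones, by 1.70 and 0.36, where the genome had -0.39 and -1.48. No test was made of these lengths.

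Forms of miR-210-3p with another start carry another seed. The stack starting at base 69 of the hairpin, 3 bases downstream (5′ end 568130, 4 alignments), is shown with its seed in capitals for comparison with the annotated one above.
miR-210-3p, shifted start: uGCGUGUGacagcggcugaucugu

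That shifted stack stood at 0.32 and 2.28 in the 3 d pairs, 0.07, -1.19 and -1.79 in those of 13 d, and -0.76, 0.06 and -0.57 in those of 31 d, and was not called at 13 d (-0.97 ± 0.61, SE, limma adjusted p = 0.279) or at 31 d (-0.42 ± 0.61, limma adjusted p = 0.649). It was above the annotated start in every pair at 13 d and 31 d, but the 2 stacks differ in length, 20 to 24 nt against 20 to 27 nt. Beside the annotated 22 nt form alone, it was above in every 13 d pair, and at 31 d in pair 1 only. The stack starting 1 base upstream, at 568134, was lower at 13 d (-2.33 ± 0.69, limma adjusted p = 0.0225) and missed the threshold at 31 d (-1.53, limma adjusted p = 0.134). The difference between the starts was not tested.

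**Figure D4:**
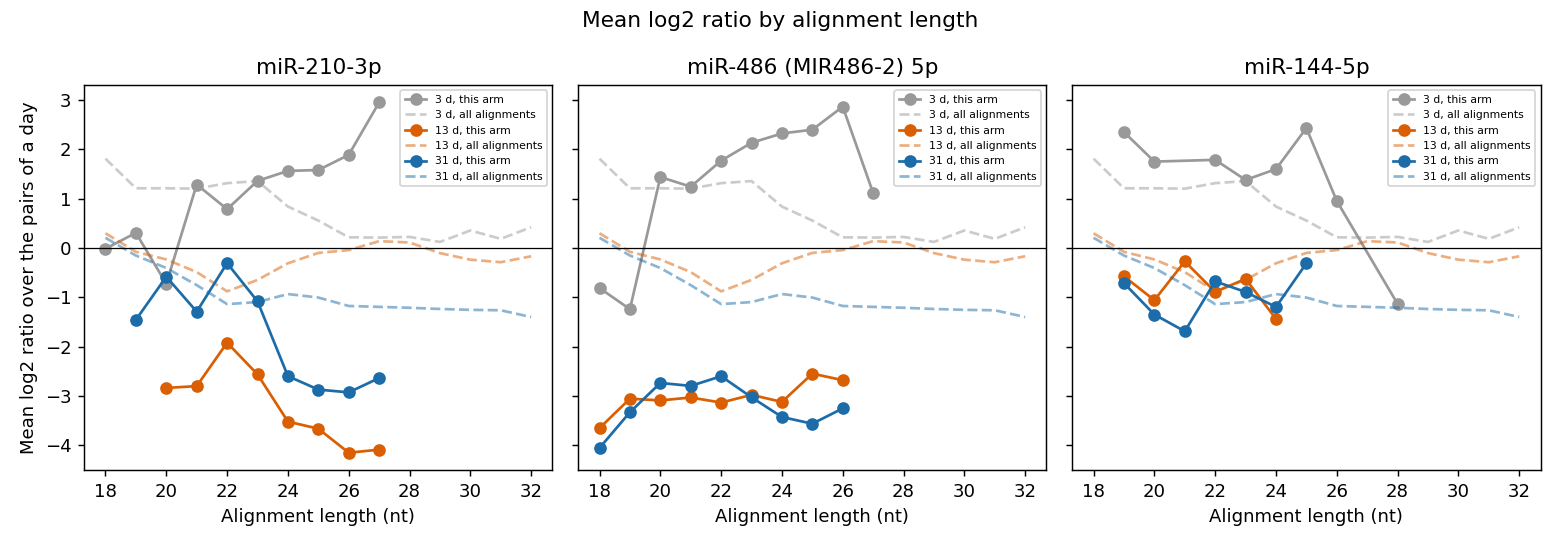
Mean log2 ratio over the library pairs of a day (y axis) by alignment length in nt for miR-210-3p, the MIR486-2 5p arm and miR-144-5p. Solid lines are the arm, drawn where every pair of the day had a ratio above 0, and dashed lines are all alignments of that length. For miR-210-3p the 13 d mean goes from -2.84 at 20 nt to -1.92 at 22 nt and -4.15 at 26 nt. For the MIR486-2 5p arm it goes from -3.13 at 22 nt to -2.68 at 26 nt.

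Between days, 5 of the 7 arms were lower at 13 d than at 3 d, where 29.5% of all stacks were, and 6 of 7 were lower at 31 d than at 3 d, where 28.6% were. None was higher, where 2.28% and 1.38% of all stacks were. MiR-451a passed between 31 d and 3 d (-4.24 ± 1.12, SE, limma adjusted p = 0.0128) and missed the threshold between 13 d and 3 d (-3.06 ± 1.12, limma adjusted p = 0.0567). MiR-144-5p passed in neither, with -2.57 ± 1.07 at both days (limma adjusted p = 0.0903 and 0.0906). None of the arms passed between 31 d and 13 d. Neither did any of the 1228 stacks in limma, of which 68 had an unadjusted p under 0.05 (0% called in both directions). The contrasts with 3 d rest on 2 pairs that themselves lie up to 3.29 apart, for miR-144-5p.

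Other microRNAs known from red cell formation were counted in the same way, and 7 arms are too few to set them apart from stacks in general. Of the 7 arms with a stack (miR-16-5p, miR-221-3p, miR-222-3p, miR-223-5p, miR-223-3p, miR-191-5p and miR-425-3p), 1 was lower at 13 d, where 23% of all stacks were, and none at 31 d, where 19.9% were. None was higher at either day, where 8.79% and 5.46% were. Their median was -0.01 at 13 d and 0.52 at 31 d, against -0.15 and -0.72 for all stacks. The 1 that fell was miR-425-3p at 13 d, at -2.28, -0.97 and -3.16 in the 3 pairs (mean -2.14, limma adjusted p = 0.0229). MiR-222-3p, known to restrain KIT, had a mean of 1.37 at 13 d and 1.15 at 31 d (limma adjusted p = 0.107 and 0.183). Of the neighbours of MIR451A, MIR4732 had 2 to 7 alignments in a table and MIR451B at most 2, and neither had one above 0 in all 8 tables.

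**Figure D5:**
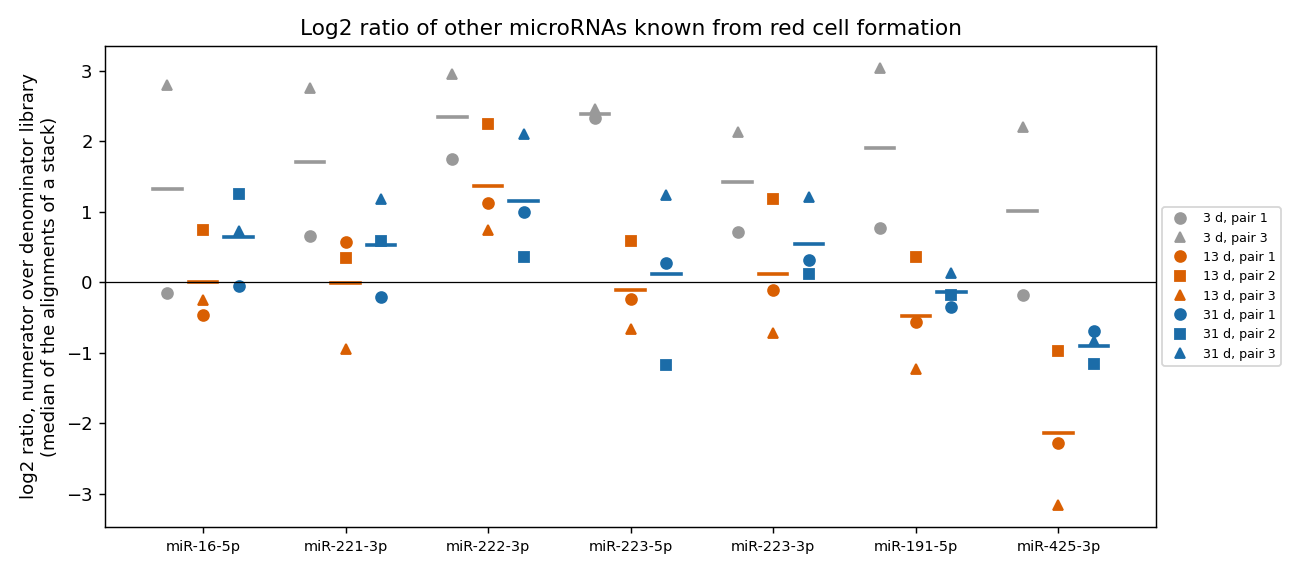
Log2 ratio of the 7 other arms known from red cell formation, 1 point per library pair, coloured by day and shaped by pair number, with bars for day means. Of the 13 d and 31 d points, those of miR-222-3p all lie above 0 and those of miR-425-3p all below 0. The other arms have points on both sides. Medians over the arms were -0.01 at 13 d and 0.52 at 31 d. MiR-425-3p at 13 d is the 1 set of points that passed, at a mean of -2.14.

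Markers of other cell types were listed too. The windows of MIR142 (white blood cells), MIR126 (endothelium) and MIR122 (liver) held 38 to 82, 48 to 72 and 4 to 17 alignments in a table, and none of these windows was empty in any table. MIR223, known from white blood cells as well, held 49 to 71. Of 5 arms with a stack, miR-142-3p was lower at 13 d (-1.99 ± 0.61, SE, limma adjusted p = 0.0265) and at 31 d (-2.16 ± 0.61, limma adjusted p = 0.0222), and the other 4 arms were not called, with a median over all 5 of -0.47 and -0.65. That is 1 of 5 at each day, a share near the 23% and 19.9% of all stacks. Their part in the values of the erythroid microRNAs was not tested.

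The stacks most like miR-451a over the 8 tables, by the root mean square difference of the log2 ratios, were at 17911421 on chromosome 21, plus strand (0.668), and at 53408624 (0.810) and 133303735 (0.812) on chromosome X, minus strand. They carry no name here. Among the other arms the MIR486-2 5p arm was the nearest to miR-451a (1.09) and miR-144-5p, from its own transcript, the farthest (1.87). Likeness is in part a shift that whole tables share.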

How the data were processed

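Small RNA of K562 cells was sequenced from 17 libraries, and 8 tables, each for a Dox and a water library, were used. Reads were aligned with Bowtie2 2.2.9 to hg19 (GRCh37), per the submitters' processing notes. Each row is a distinct alignment with the ratio of the libraries as the authors deposited it. The 32 other value columns name no library and were not used, so reads and depth are not given. The file headers and labels do not state the numerator. File starts count from 0 and were moved to 1-based positions.

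Alignments of 18 to 32 nt above 0 in all 8 tables (12795) that share a 5′ end and strand formed stacks of at least 3 (1228). The median log2 ratio of a stack was fitted in limma 3.58.1 (R 4.3.3, robust empirical Bayes, 1 mean per day against 0, all 8 tables), with Benjamini-Hochberg adjustment over all stacks at 0.05. The days shared 1 estimate of the spread, so each SE from limma rests on all 8 tables and not on the pairs of its day alone. The limma step was tested on simulated stacks with independent noise and no shift of whole tables. That simulation therefore cannot speak to the shifts of these tables. Arms of miR-144 and miR-210 were placed by their RefSeq mature form. For MIR451A, MIR486-1 and MIR486-2, the stack with the most alignments on each side of the window was taken. Differences within tables used exact two-sided sign-flip permutation tests (scipy 1.17.1).

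Every arm of the 5 genes is named, with the 3 stacks most like miR-451a. Members and lists were chosen with earlier results of these data known. The lists were 9 other red cell microRNA genes, 2 cluster neighbours and markers of other cells. Of the red cell list, miR-15a had 2 complete alignments and no stack, and MIR155 and MIR22 had no arm placed. Each alternative changed 1 choice. These were the scale of a table, length, the forms used, zeros, the stack size, the fit and the pairs included.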

Additional observations from a re-analysis of the deposited data

Results flagged for a closer look

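The same contrast differed between days for 11 arm and day combinations, by a limma test of the difference itself (adjusted over all 1228 stacks). All were lower at the later day than at 3 d, where all stacks together also differed, by a median of -0.75 at 13 d and -1.58 at 31 d. At 13 d minus 3 d the log2 differences were -4.78 ± 1.06 for miR-210-3p (SE, limma adjusted p = 0.00514), -4.68 ± 0.90 for the MIR486-1 5p arm (limma adjusted p = 0.00273) and -4.86 ± 0.85 for its 3p arm (limma adjusted p = 0.00193). They were -4.71 ± 0.92 for the MIR486-2 5p arm (limma adjusted p = 0.00283) and -4.83 ± 0.82 for its 3p arm (limma adjusted p = 0.00188).

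At 31 d minus 3 d they were -4.24 ± 1.12 for miR-451a (limma adjusted p = 0.0128), -3.19 ± 1.06 for miR-210-3p (limma adjusted p = 0.0384), -4.46 ± 0.90 and -3.86 ± 0.85 for the 5p and 3p arms of MIR486-1 (limma adjusted p = 0.00393 and 0.00547), and -4.89 ± 0.92 and -3.62 ± 0.82 for those of MIR486-2 (limma adjusted p = 0.00320 and 0.00619). The miR-210-3p difference was lost with tables centred (-1.32, limma adjusted p = 0.274), and that of miR-451a was lost with them too (-2.38, limma adjusted p = 0.0580). So were those of the 3p arms of MIR486-1 (-2.0, limma adjusted p = 0.169) and MIR486-2 (-1.76, limma adjusted p = 0.172). The part of table-wide shifts in these differences was not tested further.

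Single pairs also decided some of these calls. Without 3 d pair 3, miR-210-3p was -3.20 at 13 d minus 3 d (limma adjusted p = 0.0713) and -1.61 at 31 d minus 3 d (limma adjusted p = 0.306). The latter was also lost without 13 d pair 2 (-2.54, limma adjusted p = 0.136) or any of the 31 d pairs 1 to 3 (limma adjusted p = 0.0791, 0.0745 and 0.0692). MiR-451a at 31 d minus 3 d was lost without 3 d pair 3 (-3.67, limma adjusted p = 0.126) or 31 d pair 2 (-3.12, limma adjusted p = 0.0654). Its difference at 13 d passed without 13 d pair 2 (-3.74, limma adjusted p = 0.0442), 31 d pair 1 (limma adjusted p = 0.0438) or 31 d pair 2 (-4.06, limma adjusted p = 0.00808). Without 3 d pair 1, miR-144-5p passed too, at -4.36 (limma adjusted p = 0.0141) at 13 d and -4.48 (limma adjusted p = 0.0142) at 31 d.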

How the results depend on the processing

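No paired analysis was possible because each deposited ratio is already taken within a Dox and water pair. That reason holds within a day, where the limma tests of the ratios against 0 already use the pairing. Between days, pair numbers 1 and 3 recur at 3 d, 13 d and 31 d, and number 2 at 13 d and 31 d. The labels do not say whether 1 number is 1 culture followed over time. The day differences were fitted without a term for the pair number. They and the permutation tests thus took the 8 tables as independent, which was not tested. Of the alternatives, the mature form alone was not run for miR-451a and miR-486, nor for differences within tables. Leaving out 13 d pair 3 and 31 d pair 2 together, the tables whose median at 24 to 32 nt was below 0, was chosen after seeing the data. Between 5 and 6 of 7 arms were lower at 13 d under every alternative run. The count was 5 without 13 d pair 3, where 159 of 1298 stacks were lower. It was also 5 with 20 to 24 nt alone, where 273 of 764 stacks were. At 31 d the count was 3 with tables centred, where 158 of 1228 stacks were lower, and 2 to 6 with a pair left out. The 2 came without 31 d pair 3, where 118 of 1254 stacks were lower. The 6 came without 3 d pair 1 or 3 d pair 3, where 261 of 1323 and 263 of 1325 were. At 3 d 1 arm was higher with 20 to 24 nt alone, where 230 of 764 stacks were. With 20 to 24 nt the 13 d value of miR-451a was -1.27 (limma adjusted p = 0.102). With no minimum of alignments its adjusted limma p was 0.0564. The mean of miR-451a minus miR-144-5p was from -1.83 to -1.33 over all pairs but 1.

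Values that were not called changed sign as follows, and the cause was not tested. MiR-451a at 3 d was -0.12 centred and -0.34 length-centred, miR-144-5p at 31 d 0.14 length-centred, and miR-210-3p at 3 d from -0.16 to 3.00 with a pair left out. With zeros dropped table by table, miR-451a minus the MIR486-1 3p, MIR486-1 5p, MIR486-2 3p and MIR486-2 5p arms was -0.37, -0.21, -0.40 and -0.32 over all pairs and -0.28, -0.10, -0.22 and -0.076 over the later ones. Without 13 d pair 3 and 31 d pair 2 it was -0.056 and -0.17 for the 5p arms over all pairs. With a pair left out, these 4 differences ranged from -0.27 to 0.34, -0.34 to 0.12, -0.38 to 0.25 and -0.30 to 0.19 over all pairs, and from -0.22 to 0.69, -0.20 to 0.44, -0.38 to 0.50 and -0.082 to 0.54 over the later ones. For miR-451a minus miR-210-3p the ranges were -0.77 to 0.084 and -1.0 to 0.31.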
